A study of Mus musculus with 24 samples.

Results

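The subject here is 10 genes that form 5 overlapping pairs in the gene count table of a mouse liver study. In each pair a gene that took an unusually large number of counts lies on the opposite DNA strand of a gene of hepatocyte or secretory function. The pairs, with the most counted gene first, were Gm30505 with Ahsg, Tomm40l with Nr1i3, Lrrc61 with Rarres2, Nop9 with Cideb, and Snx22 with Ppib. All 10 symbols were found among the 24421 entries of the table. They were chosen from their total counts, which are therefore given as a description without a test. By total counts Gm30505 ranked 1, Tomm40l 3, Lrrc61 4, Nop9 5 and Snx22 6. Just outside the choice stood Gm10069 at rank 2, whose opposite-strand partner is Pzp, and Tardbp at 115304 counts, next below Snx22 at 128285.

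Livers came from male C57Bl/6J mice in 8 groups of 3 libraries. The groups at 12 months were m12_WD+VC, m12_WD, m12_CD+VC and m12_CD, and those at 12 weeks were w12_WD+VC, w12_WD, w12_CD+VC and w12_CD. WD is a Western diet with 42% fat and CD a control diet with 13% fat. VC is inhaled vinyl chloride, an industrial chemical that the liver oxidises, at 0.85 ± 0.1 ppm, inhaled for 6 hours daily, 5 days each week, during 12 weeks, and groups without it breathed air. The w12 groups were killed straight after those 12 weeks. The m12 groups were housed for 9 months more without further inhalation, and the labels give their feeding time as 12 months. The labels do not tie each library to an animal of its own, so the p-values below measure the spread between these libraries.

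The partner genes carry out liver tasks that differ from one another. Ahsg encodes fetuin-A, a plasma glycoprotein that hepatocytes secrete and that holds calcium phosphate in solution. Nr1i3 encodes CAR, a nuclear receptor that switches on genes of drug and toxicant metabolism. Rarres2 encodes chemerin, a secreted attractant for immune cells that is also made by fat tissue. Cideb encodes a lipid droplet protein that takes part in the lipid loading of very low density lipoproteins. Ppib encodes cyclophilin B, a proline isomerase of the endoplasmic reticulum that helps to fold collagen and other secreted proteins. On the opposite strands, Tomm40l is a paralog of the mitochondrial import channel Tomm40, Nop9 takes part in ribosome assembly, and Snx22 belongs to the sorting nexins, proteins that bind membrane phosphoinositides. Gm30505 is a non-coding RNA annotated as antisense, and Lrrc61 is named for its leucine-rich repeats.

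In the GENCODE M21 annotation of GRCm38 the pairs overlap in different ways. Gm30505 (chromosome 16, 22874983 to 22894386, minus strand) meets Ahsg (22891277 to 22899449, plus strand) in 62 exon bases. These make up 3.50% of the exon bases of Gm30505 and lie wholly in the coding sequence of Ahsg. Tomm40l (chromosome 1, 171216011 to 171222514, minus strand) and Nr1i3 (171213970 to 171220701, plus strand) share 3304 exon bases, the longest overlap of the 5. Lrrc61 (chromosome 6, 48554796 to 48570722, plus strand) and Rarres2 (48569696 to 48572789, minus strand) share 892. Nop9 (chromosome 14, 55745693 to 55755500, plus strand) and Cideb (55754050 to 55758458, minus strand) share 1136, which is 76.3% of the exon bases of Cideb. Snx22 (chromosome 9, 66065176 to 66069719, minus strand) and Ppib (66060222 to 66066623, plus strand) share 825. In these last 3 pairs the shared bases lie outside the coding sequence of the most counted gene, and in Tomm40l they include 546 coding bases. Gm30505 had the shortest overlap and the most counts of the 5.

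**Figure D1:**
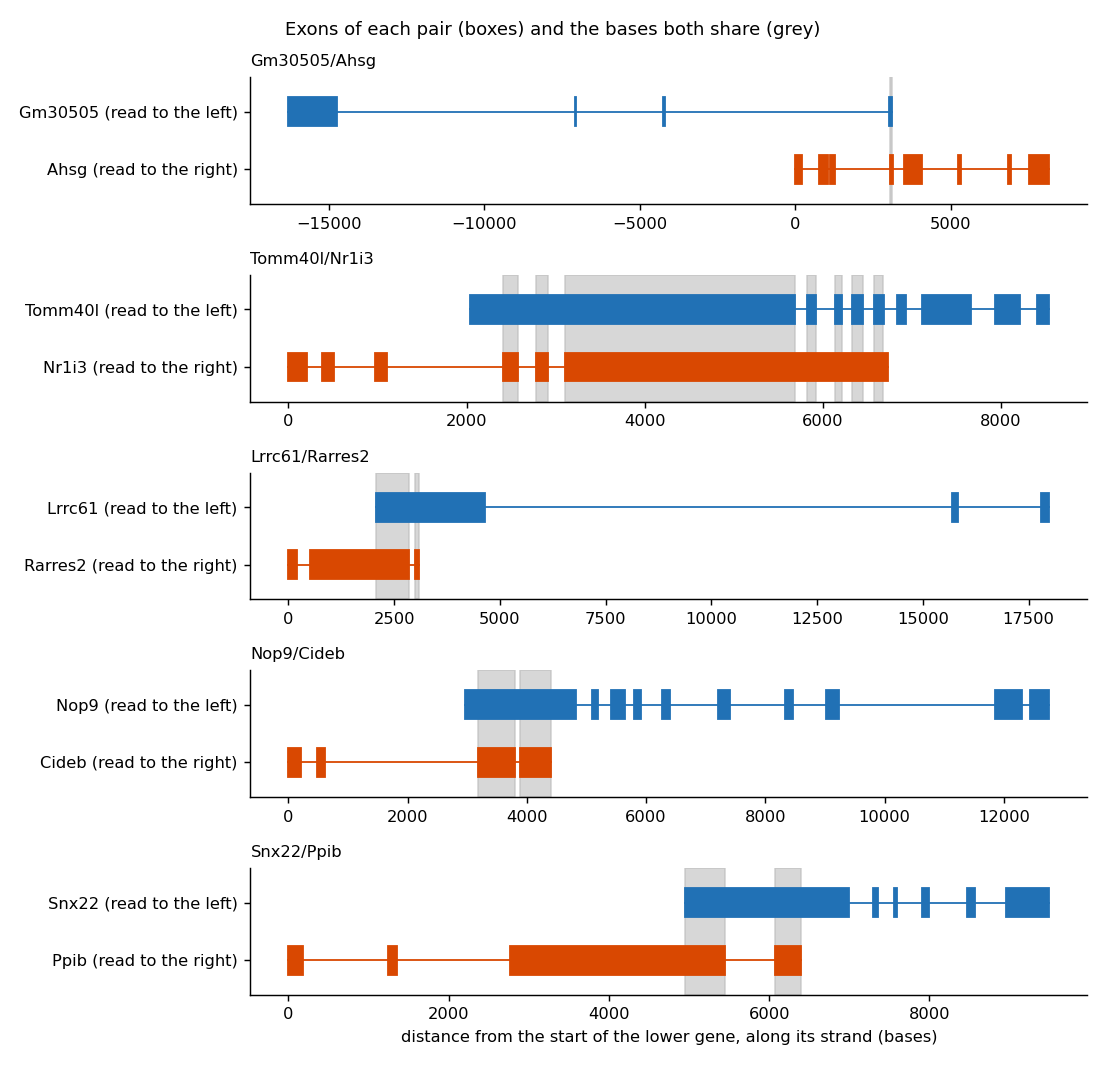
Exons of the 5 pairs, drawn in bases from the start of the lower gene along its strand (x axis, a separate scale per pair), with the most counted gene above its partner. Boxes are exons merged over transcripts and grey marks the bases that both share, 62 in Gm30505/Ahsg and 3304 in Tomm40l/Nr1i3.

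The shared stretch of the pair with most counts is short enough to print whole. It is given on both strands, 5′ to 3′, from the GENCODE M21 transcripts (GRCm38, chr16:22894325-22894386), to show that the same bases belong to both entries.
Ahsg, plus strand: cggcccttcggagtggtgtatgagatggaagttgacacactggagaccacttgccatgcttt
Gm30505, minus strand: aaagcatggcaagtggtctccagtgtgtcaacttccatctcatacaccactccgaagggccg
In 3 more pairs the last 30 coding bases of the partner, which lie inside exons of the most counted gene, are shown. They are printed with the stop codon in capitals, to show that the overlap takes in the end of the partner's reading frame.
Nr1i3, inside Tomm40l, chr1:171218689-171218718, plus strand: acgccgctgctcggggagatttgcagtTGA
Cideb, inside Nop9, chr14:55754436-55754465, minus strand: tggcacgggcagagacacctccactccTAA
Ppib, inside Snx22, chr9:66066388-66066417, plus strand: gagaaacccttcgccattgccaaggagTAG

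The libraries were shallow, and precision differs between them. Total counts per library ran from 126160 to 962493 in 23 libraries, and w12_WD 3 held 607. In the 23 libraries the 5 most counted members together took 12.5% to 22.1% of all counts, and their 5 partners 0.0599% to 0.342%. Entries with no exon overlap on the opposite strand took 11.4% to 31.6%. A count of 0 allows up to 3 counts, which is 3.12 to 23.8 CPM (counts scaled to a common library total) at these depths. Such limits, and the intervals on shares below, cover counting error only. All 5 hepatocyte markers that were checked (Alb, Ttr, Apoa1, Trf, Cyp2e1) were above 0 in every group. The libraries were made with a kit that, as named, does not keep the strand of a transcript, and how the counting treated strand is not stated in the sources at hand. Without strand, reads from the shared bases cannot be assigned to either gene of a pair. The shared bases are 3.50% of the exon bases of Gm30505 and 2.82% of those of Ahsg. The part of strand handling in these counts was not tested. Levels of all 10 members are given as levels of table entries.

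Over all libraries each of the 5 most counted entries exceeded its partner by more than 50 to 1. Gm30505 had 811098 counts and Ahsg 9493, a ratio of 85.4. Tomm40l had 195875 and Nr1i3 575, a ratio of 341. Lrrc61 had 179876 and Rarres2 3111, a ratio of 57.8. These levels chose the genes and carry no test. Nop9 had 176366 and Cideb 799, a ratio of 221. Snx22 had 128285 and Ppib 544, a ratio of 236. Among all 1066 opposite-strand pairs with enough counts for a test, the median ratio of the higher to the lower entry was 7.85, with quartiles of 2.46 and 27.2, and 153 pairs (14.4%) exceeded 50. The other 20 entries with an overlap among the 30 most counted had ratios from 3.04 to 382, with a median of 36.1. Exon lengths within a pair differ, so the ratio was also taken per kilobase of all exons, shared bases included. The shared bases are 76.3% of the exons of Cideb and 29.9% of those of Nop9, so this ratio does not make the entries fully comparable. Its median over 23 libraries was 148 for Gm30505/Ahsg, 279 for Tomm40l/Nr1i3, 52.0 for Lrrc61/Rarres2, 81.1 for Nop9/Cideb and 343 for Snx22/Ppib.

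The steadiness of the ratio differed between pairs. Lrrc61/Rarres2 kept within 38.2 and 99.9 over 23 libraries, a 2.62-fold span. Nop9/Cideb ran from 129 to 597, a 4.64-fold span. Tomm40l/Nr1i3 ran from 81.3 in m12_CD+VC 1 to 1092 in w12_WD+VC 2. Its wide span came with a wide span of Tomm40l itself, 3221 to 50216 CPM, while Nr1i3 ran from 29.5 to 112 CPM. Gm30505/Ahsg ran from 27.0 in m12_WD 2 to 507 in m12_CD 1. Snx22/Ppib ran from 90.4 in m12_WD 2 to 1657 in w12_CD 3, where Ppib had 4 counts. In both of these pairs the partner varied more than the most counted entry. Ahsg spanned 10.4-fold and Gm30505 2.34-fold, and Ppib spanned 15.2-fold and Snx22 2.38-fold.

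**Figure D2:**
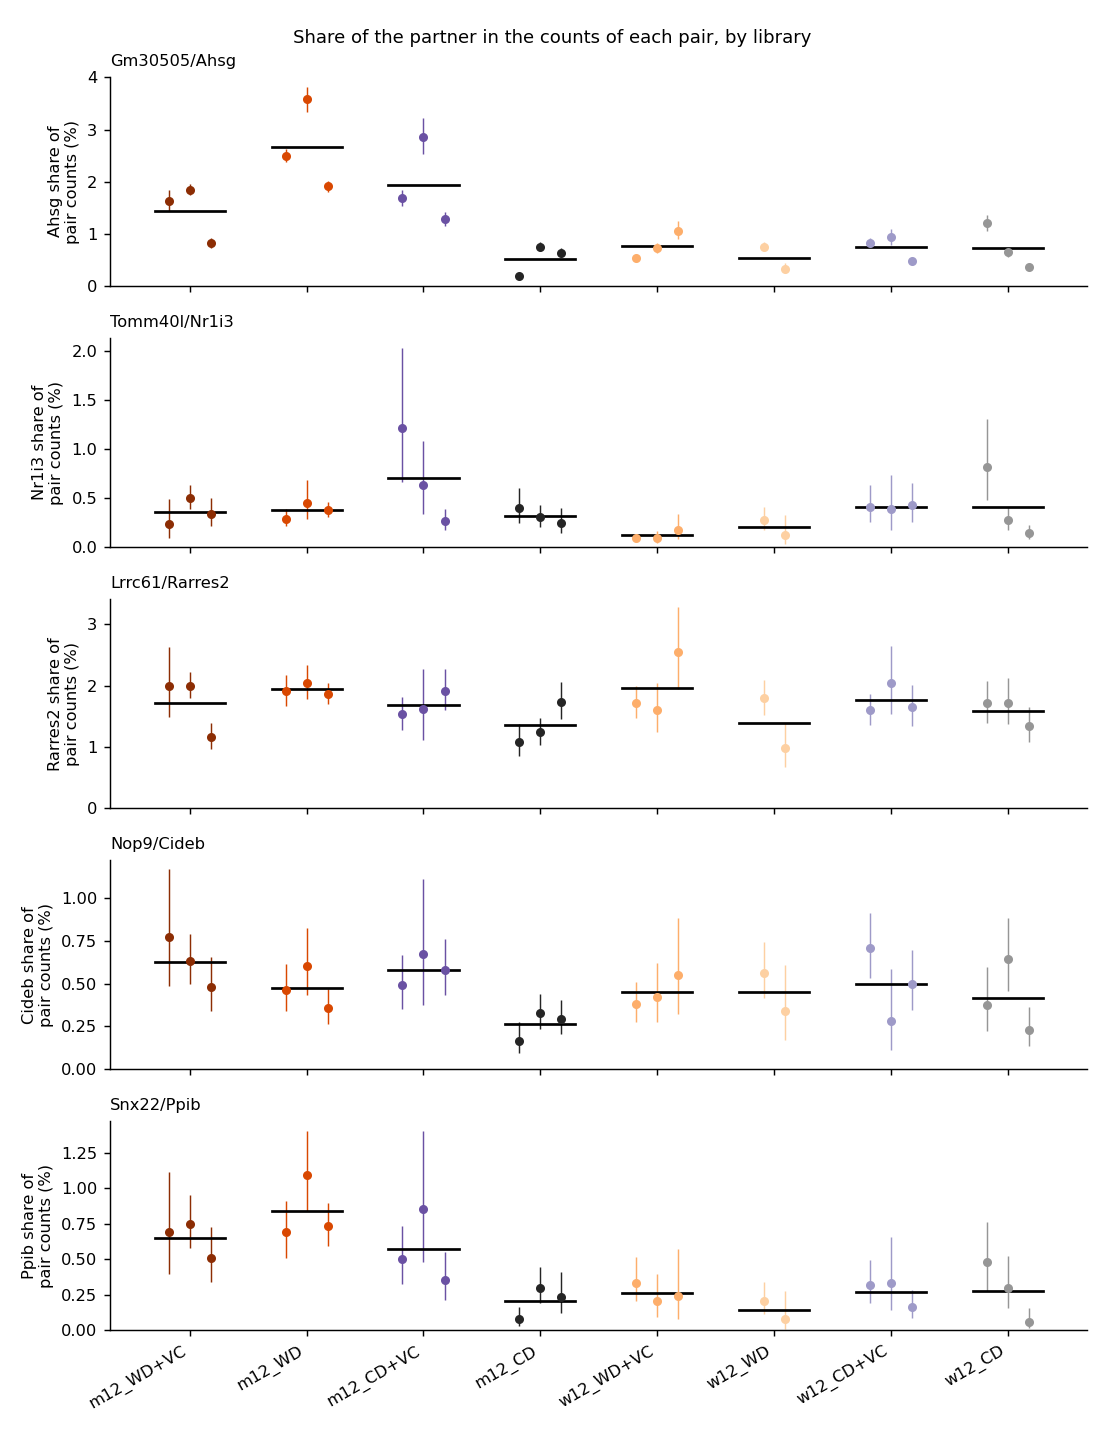
Share of the partner in the summed counts of each pair (y axis, percent, from 0) in 23 libraries, by group; points are libraries with exact 95% Clopper-Pearson intervals and bars are group means (n = 3, w12_WD n = 2). Ahsg averaged 2.66% in m12_WD and 0.531% in m12_CD, and Ppib 0.839% in m12_WD and 0.205% in m12_CD.

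The clearest group difference was between the diets at 12 months without VC, where the ratios of Gm30505/Ahsg and Snx22/Ppib were lower in m12_WD than in m12_CD. The ratio of Gm30505 to Ahsg was 39.0, 27.0 and 51.3 in the m12_WD libraries, against 507, 132 and 154 in the m12_CD libraries. The ratio of Snx22 to Ppib was 144, 90.4 and 135 in m12_WD, against 1238, 333 and 423 in m12_CD. The groups did not overlap in either pair. Such overlap, here and below, describes 3 libraries per group. How many of all pairs or entries do not overlap was not counted. In edgeR's quasi-likelihood test of the ratio within libraries, adjusted by Benjamini-Hochberg over 1066 pairs, the log2 ratio of Gm30505/Ahsg fell by 2.48 ± 0.52 (SE), a 5.58-fold lower ratio (adjusted p = 0.00207). That of Snx22/Ppib fell by 2.08 ± 0.48, a 4.23-fold lower ratio (adjusted p = 0.00455). Thus 2 of 5 pairs passed, both lower, where 11.8% of all pairs passed in either direction and 9.76% passed as lower. The ratio test needs no scaling between libraries.

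The other 3 pairs did not pass. Nop9/Cideb had ratios of 215, 164 and 278 in m12_WD, against 597, 304 and 342 in m12_CD, and the groups did not overlap. Its log2 change was -0.82 ± 0.40 (adjusted p = 0.161 by edgeR). Lrrc61/Rarres2 changed by -0.54 ± 0.33 (adjusted p = 0.267 by edgeR) and Tomm40l/Nr1i3 by -0.21 ± 0.47 (adjusted p = 0.813 by edgeR). The change was below 0 in 5 of 5 pairs, and below 0 in 66.5% of all pairs, whose median was -0.49. Of all 1066 pairs, 95 changed further down than Gm30505/Ahsg and 152 further down than Snx22/Ppib. Over the 1061 other pairs, the lower entries took 12.3% ± 0.274 of pair counts in m12_WD and 9.17% ± 0.450 in m12_CD (SD, n = 3 each).

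In both pairs the partner's level was higher in m12_WD. Ahsg had 2731, 2102 and 1374 CPM in m12_WD, against 262, 629 and 603 CPM in m12_CD. Ppib had 90.7, 152 and 99.7 CPM in m12_WD, against 21.1, 48.9 and 31.0 CPM in m12_CD. For both genes every m12_WD library lay above every m12_CD library, a description without a count over all entries. In edgeR's test over 4198 entries the log2 level of Ahsg rose by 1.72 ± 0.35 (adjusted p = 0.000657) and that of Ppib by 1.37 ± 0.40 (adjusted p = 0.0125). Ppib is the less certain of the pair, since its call was lost without m12_CD 1, m12_CD 3 or m12_WD 2 and when entries of low counts were kept (adjusted p = 0.0790).

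Among the most counted entries, Nop9 fell. It had 19133, 16140 and 14724 CPM in m12_WD, against 26978, 27801 and 30927 CPM in m12_CD, with no overlap. Its log2 level fell by 1.15 ± 0.34 (adjusted p = 0.0129 by edgeR). Gm30505 had 106631, 56671 and 70434 CPM in m12_WD, against 132703, 82981 and 92988 CPM in m12_CD, and the groups overlapped. Its log2 change was -0.80 ± 0.42 and that of Snx22 -0.88 ± 0.38, and neither passed (adjusted p = 0.157 and 0.0865 by edgeR). So 3 of 10 members passed in this comparison, where 24.5% of all entries did. Without w12_WD 3, the library of 607 counts, 5 members passed, with Gm30505 (-0.85, adjusted p = 0.0320) and Snx22 (-0.94, adjusted p = 0.0111) added. Under RLE size factors in place of TMM the median entry stood 0.39 higher, Nop9 was at -0.74 (adjusted p = 0.0308) and Gm30505 at -0.38 (adjusted p = 0.400).

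The remaining 5 members did not pass in this comparison. Tomm40l, Nr1i3, Lrrc61, Rarres2 and Cideb had log2 changes of -0.05, 0.13, -0.09, 0.45 and -0.30. Cideb had 88.8, 98.2 and 53.0 CPM in m12_WD, against 45.2, 91.4 and 90.6 CPM in m12_CD, so its groups overlapped where those of Nop9 did not.

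**Figure D3:**
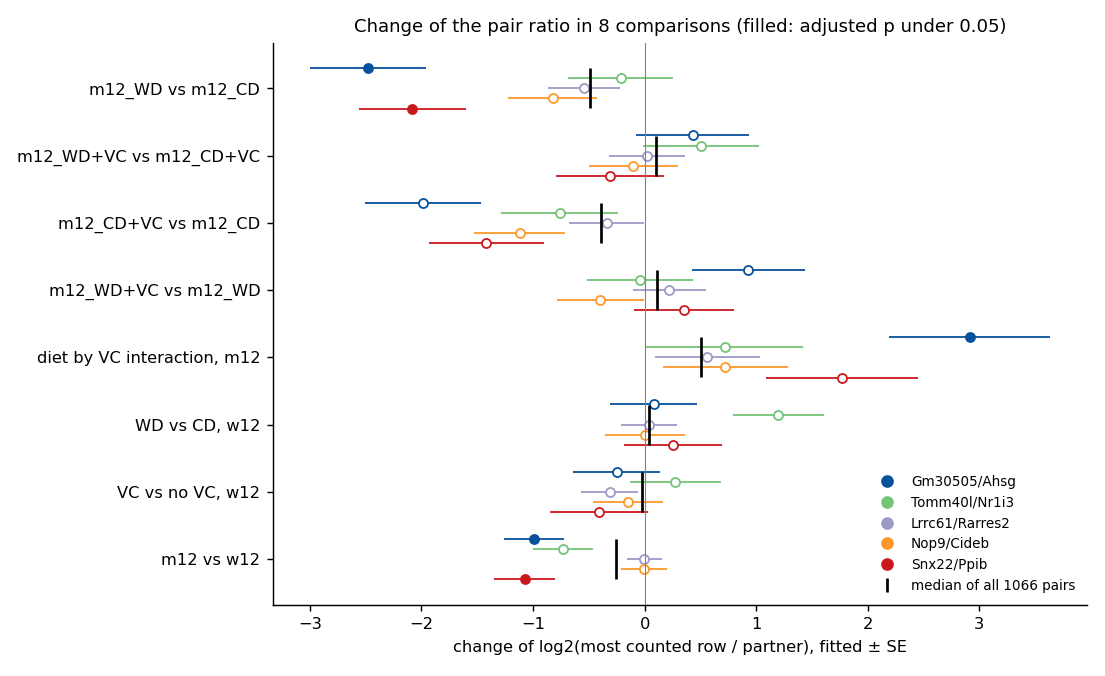
Fitted change of the log2 ratio of the most counted entry to its partner (x axis) in 8 comparisons (rows), with standard errors as lines and the median of all 1066 pairs as a black tick. Filled points passed at an adjusted p under 0.05: Gm30505/Ahsg in 3 comparisons and Snx22/Ppib in 2.

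Genes that work with or lie beside the partners were examined as lists in the same comparison. The 4 tested neighbours and relatives of Ahsg on chromosome 16 all rose in m12_WD: Fetub, which encodes fetuin-B, Hrg, which encodes a histidine-rich plasma glycoprotein, and the kininogen genes Kng1 and Kng2. Hrg had 352 ± 26.8 CPM in m12_WD and 103 ± 43.2 CPM in m12_CD (SD, n = 3 each), a log2 change of 1.42 (adjusted p = 0.00534 by edgeR). Fetub had 157 ± 24.01 CPM in m12_WD and 37.6 ± 28.8 CPM in m12_CD, a log2 change of 1.68 (adjusted p = 0.00588 by edgeR). None of these 4 entries has an exon overlap on the opposite strand. Their median change was 1.48, against 0.11 over all entries tested and 0.48 over entries without an overlap.

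Of 5 tested cyclophilins and collagen hydroxylation partners of Ppib, 2 rose. P4hb, the disulfide isomerase subunit of prolyl 4-hydroxylase, changed by 1.41 (adjusted p = 0.00373 by edgeR), and Hspa5, the chaperone BiP, by 1.45 (adjusted p = 0.0413). Of 5 tested target genes of CAR, 2 rose, Cyp3a11 by 3.25 (adjusted p = 3.13e-05) and Por, the reductase that feeds electrons to cytochromes P450, by 1.74 (adjusted p = 0.0154), while Nr1i3 itself did not pass. Of 8 tested lipid droplet and lipoprotein genes, 4 rose and 1 fell. Apob, the core protein of very low density lipoproteins, changed by 1.92 (adjusted p = 0.000336) and Plin2, a droplet coat protein, by 1.42 (adjusted p = 0.0208). Cidec, a relative of Cideb, fell by 1.14 (adjusted p = 0.0117). Of 18 hepatocyte genes 9 rose and 0 fell, with a median change of 0.93. These counts stand beside the 24.5% of all entries that passed in either direction, and 2 of 5 is not far from that share. No member of the lists for outer membrane import (2 tested), ribosome assembly (4) and sorting nexins (3) passed, and the 3 chemerin receptor genes were too low to test.

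Other measures moved with diet at 12 months without VC. Entries with no opposite-strand overlap took 25.8% ± 3.91 of counts in m12_WD and 15.5% ± 3.58 in m12_CD (SD, n = 3 each). The summed level of 11 macrophage and Kupffer cell markers was 593 to 842 CPM in m12_WD and 60.2 to 132 CPM in m12_CD, with 6 of 8 tested markers higher. The 6 stellate cell markers summed to 142 to 165 CPM in m12_WD and 0 to 25.5 CPM in m12_CD, where Lrat and Col1a1 were at 0. Of them 2 were tested, Dcn and Col3a1, and both were higher. In m12_CD these averaged 5.98 and 5.27 CPM, below the expression filter of about 26.3 CPM. They were thus tested through groups where they were higher, which favours such a call. The same holds for Ctss, a macrophage marker at 0 in m12_CD. Of all entries 24.5% passed in this comparison. The part of these shifts in the results on Ahsg, Ppib and their ratios was not tested. In bulk tissue, fewer cells of a type and less RNA per cell cannot be told apart.

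With VC, the same diet comparison gave no call. The ratio of Gm30505 to Ahsg was 60.1, 53.0 and 119 in m12_WD+VC, against 58.2, 33.9 and 76.5 in m12_CD+VC, and the groups overlapped. Its log2 change was 0.43 ± 0.51 (adjusted p = 0.869 by edgeR). That of Snx22/Ppib was -0.31 ± 0.48 (adjusted p = 0.904 by edgeR). None of 5 pairs passed, where 0.188% of all pairs did, and 71 pairs had an unadjusted p under 0.05. None of 10 members passed at the gene level by edgeR, where 1.81% of all entries did. Of the members and pairs 0 had an unadjusted p under 0.05, and DESeq2 for levels and limma for ratios also called 0.

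The diet effect on Gm30505/Ahsg differed between exposed and unexposed mice at 12 months. The change of its log2 ratio with diet was 2.91 ± 0.72 higher with VC than without (adjusted p = 0.0336 by edgeR for the interaction), against a median of 0.51 over all pairs. It was the only one of the 5 pairs to pass, where 1.69% of all pairs passed. At the gene level the interaction of Ahsg was -1.73 ± 0.49 (adjusted p = 0.0252 by edgeR), 1 of 10 members against 9.81% of all entries. Snx22/Ppib had an interaction of 1.77 ± 0.68 in its log2 ratio and did not pass (adjusted p = 0.174 by edgeR). The call on the Gm30505/Ahsg ratio was lost without m12_CD 1, m12_CD+VC 1, m12_CD+VC 2, m12_WD 2 or m12_WD+VC 3 (adjusted p of up to 0.151), and when the 4 groups were fitted alone (2.92, adjusted p = 0.0611). That on Ahsg was lost without m12_CD 1, m12_CD+VC 2, m12_WD 1 or m12_WD+VC 3 (adjusted p of up to 0.109) and when entries of low counts were kept (-1.53, adjusted p = 0.0756).

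VC on the control diet was compared with the control diet alone at 12 months. This comparison shares the m12_CD libraries with the diet comparison above. Ahsg had 1455, 2108 and 952 CPM in m12_CD+VC, against 262, 629 and 603 CPM in m12_CD, with no overlap between the groups. Its log2 level rose by 1.24 ± 0.35 (adjusted p = 0.0350 by edgeR), the only call among 10 members, where 5.22% of all entries were called. That background itself rested on a few libraries. The 219 entries called by edgeR became 0 without m12_CD 1, where 794 had an unadjusted p under 0.05, and 10 without m12_CD+VC 2. They became 83 without m12_CD+VC 1, 87 without m12_CD 3, 133 without m12_WD+VC 2, 140 without w12_WD+VC 2 and 145 without m12_WD+VC 1, and 442 under RLE size factors. The call on Ahsg was lost in 10 of 24 fits that each left out a library (adjusted p of up to 0.229), namely any m12_CD library, m12_CD+VC 1, m12_CD+VC 2, m12_WD+VC 2, w12_CD 2, w12_CD+VC 1, w12_WD+VC 1 or w12_WD+VC 2. It was also lost when entries of low counts were kept (1.02, adjusted p = 0.154). The log2 ratio of Gm30505/Ahsg changed by -1.98 ± 0.52 and did not pass (adjusted p = 0.0626 by edgeR). None of 5 pairs passed, where 0.750% of all pairs did and 179 had an unadjusted p under 0.05, among them 3 of the 5, and limma called 0. All 5 changes were below 0, as were 68.1% of all pairs, whose median was -0.39.

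No other member passed in that comparison. Nop9 had 23448, 17533 and 23224 CPM in m12_CD+VC, against 26978, 27801 and 30927 CPM in m12_CD, a log2 change of -0.77 (adjusted p = 0.136 by edgeR). Without w12_WD 3 it passed (-0.83, adjusted p = 0.0352). Ppib had 73.6, 119 and 49.4 CPM in m12_CD+VC, against 21.1, 48.9 and 31.0 CPM in m12_CD, with no overlap, and did not pass (0.80, adjusted p = 0.210 by edgeR). Its nearest values, 49.4 and 48.9 CPM, rest on 19 and 23 counts, so that gap is within counting error. In m12_CD+VC 26.5% ± 4.64 of counts fell on entries with no opposite-strand overlap, against 15.5% ± 3.58 in m12_CD (SD, n = 3 each). Of 18 hepatocyte genes 9 rose, where 5.22% of all entries passed in either direction. Without m12_CD 1, 0 of all entries were called, so the calls on these genes and on the marker below were lost. The summed level of the 11 macrophage and Kupffer cell markers was 213 to 331 CPM in m12_CD+VC and 60.2 to 132 CPM in m12_CD, with 1 of 8 tested markers higher, Ctss, which had 0 counts in every m12_CD library. The 6 stellate cell markers summed to 75.5 to 119 CPM in m12_CD+VC and 0 to 25.5 CPM in m12_CD, and neither of the 2 tested passed. The part of these shifts in the result on Ahsg was not tested.

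Tomm40l stood out by a low value in this group. It had 3221, 16162 and 26240 CPM in m12_CD+VC, against 16406, 21353 and 16535 CPM in m12_CD, so the first m12_CD+VC library was the lowest of the 23. Nr1i3 had 39.6, 103 and 70.3 CPM in m12_CD+VC, against 66.2, 65.9 and 41.4 CPM in m12_CD. In the first library the pair's ratio was 81.3, the lowest of its kind, from 14 counts of Nr1i3.

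VC on the Western diet at 12 months gave no call. None of 10 members passed by edgeR, where 0.572% of all entries did, and none of 5 pairs did, where 0% of all pairs passed and 107 had an unadjusted p under 0.05. Ahsg had 1909, 1641 and 757 CPM in m12_WD+VC, against 2731, 2102 and 1374 CPM in m12_WD, and the groups overlapped. The log2 ratio of Gm30505/Ahsg changed by 0.93 ± 0.50 (adjusted p = 0.491 by edgeR). Cideb had 156, 119 and 100.1 CPM in m12_WD+VC, against 88.8, 98.2 and 53.0 CPM in m12_WD, with no overlap, and its log2 change of 0.68 ± 0.36 did not pass (adjusted p = 0.473 by edgeR). Its nearest values, 100.1 and 98.2 CPM, rest on 39 and 40 counts, so that gap is within counting error. Here too 0 members and 0 pairs had an unadjusted p under 0.05 or a call by DESeq2 or limma.

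At 12 weeks no member and no pair passed for diet or for VC. For diet, 0.333% of all entries and 0.375% of all pairs passed by edgeR, and 71 pairs had an unadjusted p under 0.05. For VC, 0% of entries and 0% of pairs passed, and 220 entries and 41 pairs had an unadjusted p under 0.05. DESeq2 and limma called 0 members and 0 pairs in either comparison. Unadjusted, 0 members and 1 pair were under 0.05, for diet. The largest of the pair changes was that of Tomm40l/Nr1i3 with diet. Its ratio had a lowest, median and highest value of 361, 775 and 1092 in 5 WD libraries, against 121, 247 and 702 in 6 CD libraries. The log2 change was 1.20 ± 0.41 and did not pass (adjusted p = 0.320 by edgeR). The log2 level of Tomm40l changed by 0.66 ± 0.35 and that of Nr1i3 by -0.29 ± 0.31, and neither passed.

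Averaged over the 4 conditions, 12 months differed from 12 weeks in Gm30505/Ahsg and Snx22/Ppib. The ratio of Gm30505 to Ahsg had a lowest, median and highest value of 27.0, 59.1 and 507 in 12 libraries at 12 months, against 81.8, 136 and 293 in 11 at 12 weeks. Its log2 ratio fell by 0.99 ± 0.27 (adjusted p = 0.0108 by edgeR). The ratio of Snx22 to Ppib was 90.4, 170.0 and 1238 at 12 months, against 208, 407 and 1657 at 12 weeks, and its log2 ratio fell by 1.08 ± 0.28 (adjusted p = 0.00797 by edgeR). The ranges overlapped in both pairs. Gm30505/Ahsg had a geometric mean ratio of 72.4 in m12_WD+VC, 37.8 in m12_WD, 53.2 in m12_CD+VC and 218 in m12_CD, against 133, 195, 138 and 151 in the w12 groups of the same conditions, so m12_CD was the only m12 group above its w12 counterpart.

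These 2 of 5 pairs compare with 13.4% of all pairs, of which 64.2% changed below 0 with a median of -0.25. Tomm40l/Nr1i3 changed by -0.74 ± 0.27 and did not pass (adjusted p = 0.0654 by edgeR). Lrrc61/Rarres2 and Nop9/Cideb each changed by less than 0.01, with intervals of 2 SE from -0.32 to 0.32 and from -0.42 to 0.41. At the gene level Ahsg rose by 0.65 ± 0.18 (adjusted p = 0.00740 by edgeR) and Ppib by 0.93 ± 0.23 (adjusted p = 0.00292), 2 of 10 members where 25.2% of all entries passed. Ppib had a median of 82.5 CPM in 12 libraries at 12 months, against 35.7 CPM in 11 at 12 weeks. Kng1, Hrg and Fetub of the fetuin and kininogen list rose too, 3 of 4, and P4hb was the 1 of 5 cyclophilin and hydroxylation genes that rose. Cell type markers differed between these times as well, which differ in age, feeding time and time since VC. No tested one was called as lower at 12 months. Higher there were 7 of 18 hepatocyte genes, 5 of 8 tested macrophage and Kupffer cell markers and both tested stellate cell markers. The latter, Dcn and Col3a1, averaged 7.58 and 6.93 CPM at 12 weeks, below the expression filter, so they were tested through their higher levels at 12 months. Among the markers called, C1qa, a complement subunit made by macrophages, changed by 2.57 (adjusted p = 3.15e-06 by edgeR) and Col3a1, a fibrillar collagen, by 1.59 (adjusted p = 0.0107). The summed level of the 11 macrophage markers was 60.2 to 842 CPM at 12 months and 57.6 to 204 CPM at 12 weeks. That of the 6 stellate cell markers was 0 to 165 CPM at 12 months and 12.5 to 56.8 CPM at 12 weeks. On the control diet without VC, the macrophage sum was 60.2 to 132 CPM in m12_CD and 57.6 to 128 CPM in w12_CD. The stellate cell sum was 0 to 25.5 CPM in m12_CD and 12.5 to 38.7 CPM in w12_CD. The 5 hepatocyte markers summed to 2734 to 9658 CPM in m12_CD and 5583 to 12817 CPM in w12_CD. The part of these markers in the results on Ahsg and Ppib was not tested.

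Whether both entries of a pair move together from library to library was tested on TMM-scaled log2 CPM in the 23 libraries above 1000 counts. Snx22 and Ppib moved in opposite directions, with Pearson's r of -0.63 (permutation p = 0.00104, adjusted over 1066 pairs to 0.0206) and Spearman's rho of -0.68 (permutation p = 0.000410, adjusted p = 0.0146). Gm30505 and Ahsg had r of -0.56 (permutation p = 0.00497, adjusted p = 0.0588) and rho of -0.51 (permutation p = 0.0131, adjusted p = 0.113), and did not pass. The other 3 pairs had positive coefficients that did not pass, 0.27 for Lrrc61 with Rarres2, 0.19 for Tomm40l with Nr1i3 and 0.11 for Nop9 with Cideb. Of all pairs, 7.32% passed, 6.19% as positive and 1.13% as negative, and the median r was 0.09. Snx22/Ppib is thus 1 of 12 pairs among 1066 that passed as negative.

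The relation of Snx22 and Ppib kept its sign in these 23 libraries under each subset tried. Without the 2 libraries farthest from the median of Snx22, m12_CD 1 and w12_CD+VC 3, r was -0.72 (permutation p = 0.000110, adjusted p = 0.0107). Within 12 months r was -0.73 in 12 libraries (permutation p = 0.00315, adjusted p = 0.0892), and within 12 weeks -0.56 in 11 (permutation p = 0.0748, adjusted p = 0.522). Over residuals from the group means r was -0.56 (permutation p = 0.00573, adjusted p = 0.0736). On CPM by library total it was -0.43 and did not pass (adjusted p = 0.232). For Gm30505 and Ahsg, the coefficient depended more on the libraries used. Within 12 months r was -0.57 (permutation p = 0.0517, adjusted p = 0.292) with rho of -0.28, and within 12 weeks r was -0.14 (permutation p = 0.682, adjusted p = 0.960). Without m12_WD 2 and m12_CD 1, r was -0.39 (permutation p = 0.0811, adjusted p = 0.349) and rho -0.40, so the relation was weaker without those 2 libraries. It was -0.24 over residuals from the group means (adjusted p = 0.572) and -0.47 on CPM by library total (adjusted p = 0.193). All entries share the depth and scaling of their libraries.

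**Figure D4:**
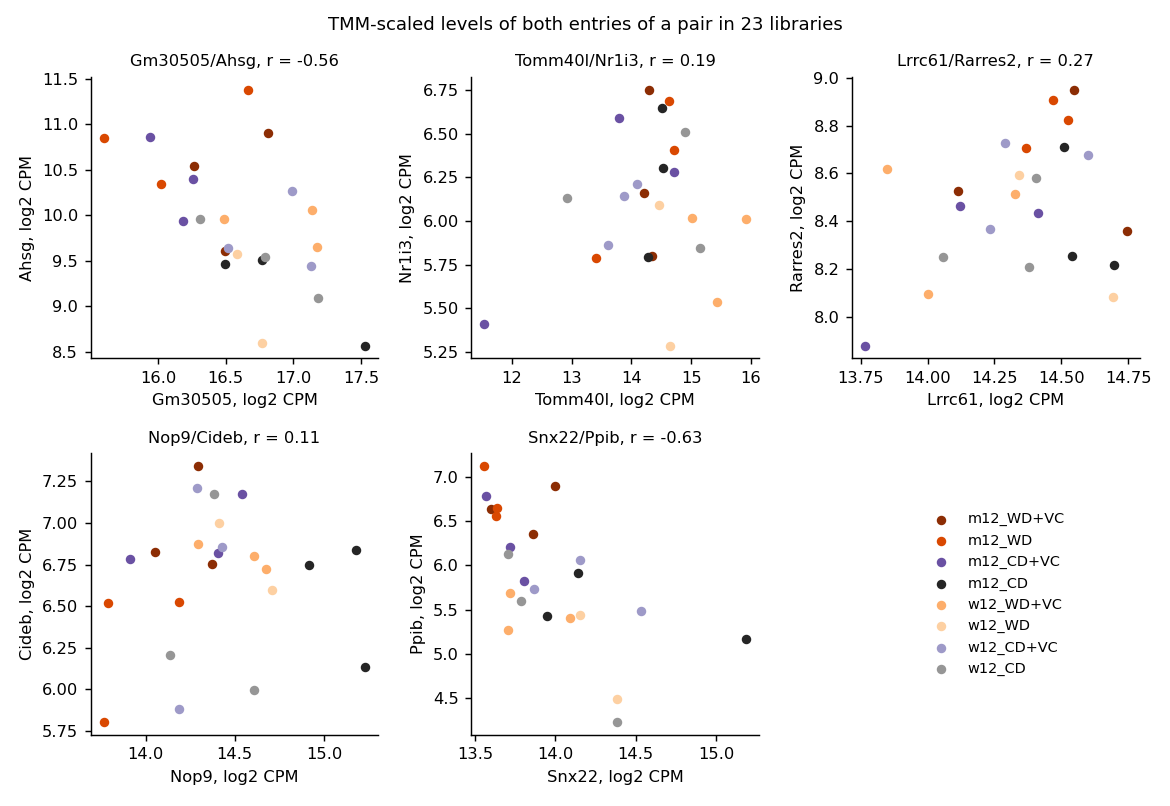
TMM-scaled log2 CPM of the most counted entry (x axis) and of its partner (y axis) in 23 libraries, coloured by group, with Pearson's r in each title. Ppib is high where Snx22 is low (r = -0.63), while Nop9 and Cideb show no such order (r = 0.11).

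In none of the 5 pairs was the partner the entry that followed its most counted neighbour best. Ranked by r among 4197 other tested entries, Ahsg stood at 3728 for Gm30505 and Ppib at 3837 for Snx22, near the bottom. Nr1i3 stood at 1103 for Tomm40l, Rarres2 at 744 for Lrrc61 and Cideb at 1648 for Nop9. The entries most like Ahsg were Sepp1 (r = 0.95), which encodes the plasma selenium carrier, Hpx (0.94), the heme-binding hemopexin, and C3 (0.92) of complement. Those most like Ppib were Ly6e (0.92), Clu (0.91), a secreted chaperone, and Ctsd (0.88), a lysosomal protease. Gm30505 was most like Lppr3 (0.86), Gm10658 (0.86) and Gm12359 (0.85), and Snx22 most like Tmem55b (0.87), Mtf1 (0.84) and Idua (0.83). Nop9 was most like Ppifos (0.89), Gm19897 (0.88) and 9130221H12Rik (0.87). These coefficients are descriptions over 23 libraries.

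The likenesses of the remaining members were looser. Tomm40l was most like Ppp1r9a (0.79), Wdfy4 (0.79) and Surf1 (0.77), Lrrc61 like Gng3 (0.78), Tbrg1 (0.76) and Fancl (0.74), and Rarres2 like Lpl (0.69), Clec4f (0.67) and Rpsa (0.67). Nr1i3 was most like Cflar (0.67), Faap24 (0.62) and 4930430F08Rik (0.60), and Cideb like Lor (0.63), Mapk8ip3 (0.62) and Xrn2 (0.61). Whether such entries themselves have an opposite-strand overlap differed between the most counted members and 4 of the partners. Of the 584 entries with r over 0.5 to Gm30505, 15.8% had no overlap, and for Snx22, Nop9, Lrrc61 and Tomm40l the share was 14.6%, 16.1%, 17.1% and 14.5%. For Ahsg it was 75.6% of 914 entries and for Ppib 71.7% of 824. For Cideb it was 73.3% of 45, for Rarres2 64.7% of 102 and for Nr1i3 9 of 18 entries, where 48.2% of all tested entries had no overlap.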

How the data were processed

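The authors deposited 1 table of raw counts per gene symbol for 24 liver libraries, and 24 files of log2 values. The log2 values, as deposited, were checked to equal log2 of count over size factor plus 1 (tolerance 1e-06) and were not tested. Per the labels' protocols, Trizol RNA went through DNase and removal of ribosomal RNA before a TruSeq RNA v2 kit and a HiSeq2500. Trimmomatic 0.38, HISAT2 2.1.0, HTSeq 0.11.2 and mm10 are named by the submitters' processing notes, without the gene annotation or the treatment of strand.

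Symbols were placed on GENCODE M21 (98.2% of entries), and exons shared by genes on opposite strands were found with bedtools 2.31.1. The counting annotation may hold other gene models. Levels were tested with edgeR 4.0.16 (quasi-likelihood, TMM, expression filter of about 26.3 CPM, R 4.3.3) in 1 model of 8 groups over 4198 entries. All 10 members passed the filter. Ratios were tested with the same method on both counts of each pair within each library, over 1066 pairs with at least 10 counts of each entry and 20 of both in 3 libraries. Both used Benjamini-Hochberg adjustment and a threshold of 0.05. Co-variation used 100000 permutations, two-sided, in the 23 libraries above 1000 counts. Both fits and the co-variation test were tried on simulated data. Shares have exact Clopper-Pearson 95% intervals.

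The members and gene lists were chosen with earlier results of these data known. Named were all members, the 3 entries most like each, and up to 2 called genes per list and direction. In addition all 4 fetuin and kininogen genes, and those of them that rose by age, were named after their values were seen. Other settings tried were DESeq2 1.42.0, RLE size factors, a fit without the expression filter, limma 3.58.1 on the log2 ratio (pseudocount 0.5), at least 50 counts per entry, the compared groups alone, a block for the replicate number, and omission of 1 library at a time. Replicates differed by more than sampling noise (chi-square per degree of freedom of at least 2.41).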

Additional observations from a re-analysis of the deposited data

Results flagged for a closer look

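The effect of diet on a pair differed between exposed and unexposed mice at 12 months in 2 tested values. The diet effect on the log2 level of Ahsg was 1.73 lower with VC than without (-1.73, adjusted p = 0.0252 by edgeR). The diet effect on the log2 ratio of Gm30505 to Ahsg was higher by 2.91 (adjusted p = 0.0336 by edgeR). Both come from the same 12 libraries and the same Ahsg counts. Other entries shared the direction of the first value: 2 of 4 fetuin and kininogen genes and 12 of 18 hepatocyte genes had an interaction below 0 that passed, where 9.81% of all entries passed in either direction. Their part in the interaction of Ahsg was not tested.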

How the results depend on the processing

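Of 1947 values recomputed under the alternatives, 1756 kept their direction and their side of the threshold. The ratio calls of Gm30505/Ahsg and Snx22/Ppib in m12_WD against m12_CD, and for 12 months against 12 weeks, kept both under every alternative run and in all 24 fits that each left out 1 library, with adjusted p of at most 0.0470 over those 24. No member or pair value in the set refitted without single libraries reversed. Others, such as the change of -0.05 for Tomm40l in m12_WD against m12_CD, were not in that set. Depth limits the partners most: Ppib had 2 to 96 counts per library in the 23 larger libraries, so small changes of its ratio could not be seen.

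Counts of members called moved more. Without the library of 607 counts, 5 members passed in m12_WD against m12_CD, 2 in m12_CD+VC against m12_CD and 3 for the interaction. Without an expression filter 0 passed in each of the last 2, and with the compared groups alone 2 passed for the interaction, where the pair ratio gave 0. Leaving out a library gave 2 to 5 members for m12_WD against m12_CD, 0 to 2 for m12_CD+VC against m12_CD and 0 to 3 for the interaction, and 0 to 1 pairs for each of the last 2. The cause of these changes was not tested.

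Co-variation of Snx22 and Ppib turned to 0.33 when all 24 libraries were used, where Lrrc61/Rarres2 reached 0.89 and Nop9/Cideb 0.72. In that setting the library of 607 counts enters, in which Ppib had 0 counts. The coefficient of Snx22 and Ppib was -0.43 by library total, -0.56 over group residuals, -0.73 within 12 months and -0.56 within 12 weeks, and did not pass in these. Counts over all entries moved by more than 1.5 times in some settings, for example 610 calls in m12_WD against m12_CD with the compared groups alone, against 1028 in the fit of all groups. Leaving out a library gave 645 to 1114 calls there, 0 to 293 in m12_CD+VC against m12_CD (219 with all libraries), 2 to 96 in m12_WD+VC against m12_CD+VC (76), 87 to 626 for the interaction (412) and 833 to 1226 for 12 months against 12 weeks (1056).

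A pairing of libraries by replicate number was looked for: in 0 of 8 pairs of groups was every correlation over 0.1 (range -0.20 to 0.18). The check had no reference from unlike numbers, so it cannot exclude a pairing. With the number as a block, 1 member pair passed in m12_CD+VC against m12_CD, Gm30505/Ahsg (-1.98, adjusted p = 0.0268 by edgeR). Tomm40l/Nr1i3 passed for 12 months against 12 weeks (-0.81, adjusted p = 0.0322 by edgeR). Of all pairs, 18 passed with the block in m12_CD+VC against m12_CD, where 8 did without it. For the interaction 40 passed, where 18 did without it.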
